A study of Mus musculus with 6 samples.

Results

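Endothelial cells line blood and lymphatic vessels, and 10 genes that mark this cell type were followed through chromatin accessibility maps of mouse bone marrow cultures: Pecam1, Cdh5, Kdr, Tek, Tie1, Flt1, Erg, Sox17, Emcn and Eng. They were chosen by name out of 21853 protein-coding genes. For each gene, every called peak within 1000 bp of the transcription start site (TSS) of any protein-coding transcript was taken, together with peaks in the gene body and in the 20 kb upstream. Overlapping peaks of different libraries were merged, which gave 33 regions at these loci, of 46608 at all protein-coding loci and 63840 in all. The cultures are labelled SSPC (skeletal stem and progenitor cell), a marrow cell that can give rise to bone and fat. Marrow of tibiae and femora from C57BL/6 mice was plated, with no sort described, and the untreated adherent cells were taken at passage one. ATAC-seq, in which a transposase cuts open chromatin, was performed on 3 young and 3 middle-aged samples, all of this strain and culture and differing by label only in the age of the mice. Young C57BL/6 mice were about 12 weeks and middle-aged ones about 52 weeks old by the methods, while the labels give only the group names. They do not state whether each library came from a single mouse, so the spread between libraries may be partly technical.

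Endothelial identity rests on adhesion molecules that join neighbouring cells, on receptor tyrosine kinases that bind VEGF and angiopoietin ligands, and on transcription factors of the ETS and SOX families that switch these genes on. In bone marrow, such cells form the sinusoids and arterioles next to which SSPCs reside. PECAM1 is the CD31 antigen, and it is also displayed by platelets and many leukocytes, while FLT1 is also made by monocytes. Since each library averages over all cells of a culture, few cells with open chromatin at a locus and many cells with weakly open chromatin cannot be told apart.

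The lists of young 1, 2 and 3 held 35953, 43941 and 27628 peaks, and those of middle-aged 1, 2 and 3 were longer, with 46364, 46745 and 48344. Read totals are not in the lists, and relative depth was taken from the genome-wide background that the peak caller used, which ranged from 2.40 to 3.75 reads in 5 libraries and was 1.65 in young 3. Young 3 thus stood apart, with the shortest list and the shallowest library, and its weakest called summit stood 4.86 times above its background, compared with 3.47 to 3.75 times in the others. Differences between the groups that this library reversed or moved by over 1.5 times are given with and without it. Among marker genes of other cell types, 9 of 10 hematopoietic genes had a TSS peak in all 6 libraries, with 9 to 10 of 10 called per library, compared with 48.4% of all protein-coding genes called in all 6 libraries and 49.5 to 58.0% called per library. This set included Ptprc, which encodes CD45, the common leukocyte antigen, and Adgre1, which encodes the macrophage antigen F4/80. Of 12 stromal genes 4 were called in all 6 libraries, namely Kitl, Ebf3, Foxc1 and Runx2, and 4 to 8 were called per library. The 4 without a TSS peak in any library were Lepr and Prrx1, defining genes of marrow stroma, and Ly6a and Thy1. The part that blood cells had in the values below was not tested.

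TSS peaks were called at some of the endothelial genes in every library, and the age groups overlapped in their number. Young 1, 2 and 3 had a TSS peak at 4, 5 and 3 of the 10 genes, and middle-aged 1, 2 and 3 at 6, 5 and 5. The groups overlapped at 5, with means of 4 ± 1 and 5.33 ± 0.577 (SD, n = 3 each), a difference of 1.33 that was 0.833 without young 3. The corresponding share of all protein-coding genes was 53.6% in young and 57.6% in middle-aged libraries, so the middle-aged counts were near the background. Cdh5 and Flt1 were called in all 6 libraries, or 2 of 10 genes, whereas 48.4% of all protein-coding genes were. Tie1, Sox17 and Emcn were called in none, or 3 of 10 genes, compared with 38.5% of all genes. None of the 10 genes was called in at least 2 more middle-aged than young libraries, which held for 2.78% of all genes, and none in at least 2 more young libraries, which held for 0.110%.

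**Figure D1:**
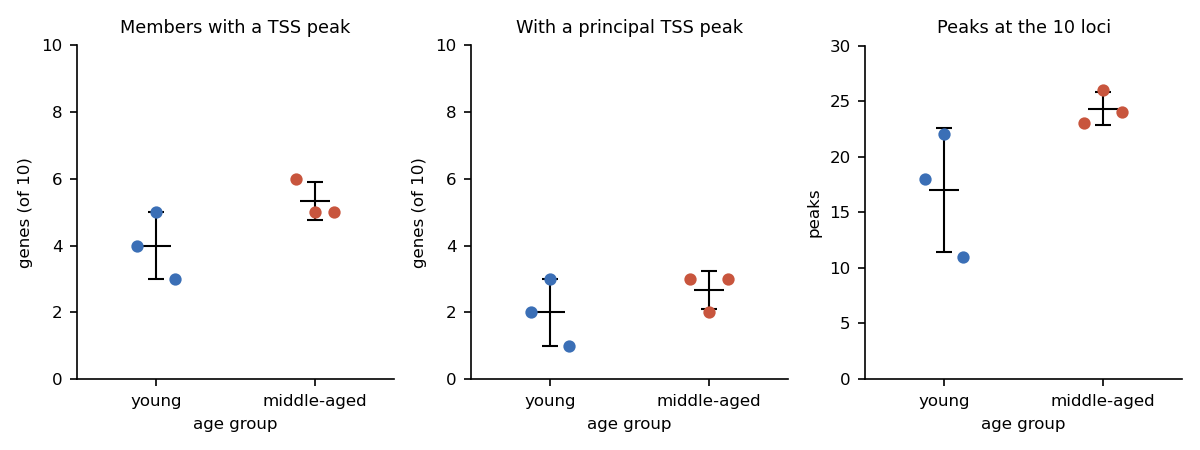
Number of the 10 endothelial identity genes with a peak at any TSS (left) or at the principal TSS (middle), and number of called peaks at their loci (right), for the 3 young and the 3 middle-aged libraries. Points are libraries, and lines are the mean ± SD; young 3 is the lowest point of each panel, with 3 genes, 1 gene and 11 peaks.

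At Cdh5, Pecam1 and Erg, 3 of the 7 genes with a TSS peak, that peak was not at the start of the principal transcript, the isoform that the annotation designates as the main one of its gene. When only principal starts were counted, a choice made after the values had been seen, young libraries had a peak at 2, 3 and 1 genes and middle-aged libraries at 3, 2 and 3. The means were 2 ± 1 and 2.67 ± 0.577, a difference of 0.667 that was 0.167 without young 3, and the genes were Kdr, Flt1, Tek and Eng. Across all protein-coding genes the same choice lowered the share with a TSS peak only from 53.6 ± 3.72% to 51.8 ± 3.65% in young libraries and from 57.6 ± 0.328% to 55.7 ± 0.353% in middle-aged libraries. The TSS peaks of the endothelial genes were also weak. Their median percentile rank, a position among the library's own peaks ordered by −log10 q with 100 the strongest, was 19.0, 13.4 and 31.9 for the young and 30.9, 40.0 and 8.18 for the middle-aged group, whereas the median of all TSS peaks was between 76.5 and 85.7 in every library.

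Among the adhesion genes, Cdh5 encodes VE-cadherin, the cadherin of endothelial junctions, and spans chr8:104101625-104144511 on the plus strand (mm10, here and throughout). Its locus held 1 region, chr8:104110703-104111396, which every library called. The region lay in an intron at 9.31 kb from the principal TSS, where no library called a peak. It counted as a TSS peak because its summit was 377 bp from the first base of a second, short transcript, whose end is annotated as incomplete, at 104111307. Fold enrichment, the pileup of reads at the summit over the local background with 1 added to each, was 11.0, 11.3 and 12.4 in young libraries and 13.1, 11.9 and 12.7 in middle-aged libraries. The percentile rank was 88.4, 87.7 and 86.9 in the young and 88.6, 85.4 and 89.2 in the middle-aged group. Every library thus placed this intronic region among its strong peaks, and the groups overlapped in both measures. The difference in rank was 0.0336 (two-sided exact permutation test, p = 1), or −0.338 without young 3, and with 3 libraries per group p cannot fall below 0.1.

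The bases around the Cdh5 summit are shown because this was the only region at the locus and the strongest TSS region of the 10 genes. The window chr8:104110830-104111030 is on the plus strand, and capitals mark the word TGANTCA, the core recognized by AP-1 factors, which starts 61 bp from the summit.
Cdh5 intron: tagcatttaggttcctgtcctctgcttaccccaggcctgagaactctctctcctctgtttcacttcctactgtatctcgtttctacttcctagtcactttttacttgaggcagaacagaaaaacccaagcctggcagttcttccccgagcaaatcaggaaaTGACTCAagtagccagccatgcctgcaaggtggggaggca
This word, searched on both strands within 150 bp of each summit, was present in 7 of the 33 regions (21.2%) and in 19.0% of all regions.

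Pecam1, which encodes the adhesion molecule CD31, spans chr11:106654217-106750628 on the minus strand, and its locus held 7 regions. The principal TSS at 106715259 had no peak in any library. The single TSS region, chr11:106751061-106751333, was called in young 3, middle-aged 1 and middle-aged 2, with ranks of 31.9, 42.6 and 40.0. It was assigned to Pecam1 through the distal start of a further transcript at 106750628, but its summit was 25 bp from the start of Milr1, an immune receptor gene of mast cells that is transcribed in the opposite direction. The summit of this region was just outside Milr1, but the region itself extended over that start. The next 3 regions upstream of Pecam1 had summits inside Milr1. Of these, chr11:106752170-106752530, at −37.1 kb from the principal TSS, was called in all 6 libraries. It ranked at 39.4, 47.8 and 9.49 in young libraries and at 52.7, 53.6 and 61.5 in middle-aged libraries, so that each middle-aged value was above each young one. The means were 32.2 ± 20.1 and 55.9 ± 4.82 (SD, n = 3; exact permutation p = 0.1, the smallest possible). The young mean rested partly on the low rank in young 3, and without that library the difference of 23.7 was 12.3. Fold enrichment behaved likewise, at 5.26, 6.27 and 4.89 versus 6.78, 7.02 and 7.35.

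Within the Pecam1 gene body, an intronic region at +39.8 kb from the principal TSS, chr11:106674632-106675741, was also called in every library. Its ranks were 24.1, 22.5 and 27.4 in young libraries and 51.0, 41.3 and 42.3 in middle-aged libraries, again without overlap (difference 20.2, exact permutation p = 0.1). The groups did overlap in fold enrichment, however, with 4.27, 4.46 and 5.63 versus 6.05, 5.56 and 5.61. The summits of the 6 libraries were up to 670 bp apart, so they did not all mark the same position. A further region, chr11:106762498-106762899 at −47.4 kb and inside Milr1, was called in all 3 middle-aged libraries and in young 1, with a rank of 13.0 in young 1 and ranks of 40.5, 19.4 and 46.5 in the middle-aged group. Every middle-aged library ranked above every young one at 2 of the 8 endothelial regions called in all 6 libraries and at 25.7% of such regions at all protein-coding loci. The opposite order was found at 0 of 8 and at 0.398%.

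Emcn encodes endomucin, a sialoglycoprotein of venous and capillary endothelium that is abundant on the type H vessels of bone. Its locus, chr3:137321067-137432185 with the upstream 20 kb, contained no peak in any of the 6 libraries. The same was true of Tie1 (chr4:118471191-118510061), which encodes an orphan receptor that pairs with TIE2, and of Sox17 (chr1:4490931-4517354), which encodes a transcription factor of arterial endothelium. Of all protein-coding loci 22.8% lacked a region. The Sox17 and Tie1 loci were the shortest of the 10, with 26.4 and 38.9 kb, whereas the Emcn locus spanned 111 kb.

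Among the receptors for VEGF, Kdr encodes VEGFR2, the main signalling receptor on endothelium, and spans chr5:75932827-75978458 on the minus strand. Its strongest region was not at the TSS but in the 3′ untranslated part of the last exon, chr5:75933370-75934083, 44.7 kb into the gene. Fold enrichment there was 10.2, 14.2 and 13.7 in young and 15.4, 12.4 and 12.7 in middle-aged libraries. The ranks, 85.7, 93.6 and 91.9 versus 93.9, 87.7 and 87.7, made it the highest ranked of the 33 regions, with a mean of 90.1. The groups overlapped, and their mean ranks differed by −0.644 (exact permutation p = 1), or by 0.0804 without young 3. At the TSS of Kdr, the region chr5:75978181-75978784 was far weaker. It ranked at 24.9 in young 1, 7.22 in young 2, 35.9 in middle-aged 1, 4.67 in middle-aged 2 and 3.98 in middle-aged 3, and young 3 had no peak. A pair of upstream regions was called in 4 libraries at −2.67 kb and in all but young 3 at −12.0 kb. The latter ranked at 43.0 and 40.6 in young 1 and 2 and at 55.3, 40.0 and 71.5 in the middle-aged libraries, above the TSS region in each of these 5 libraries.

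Flt1 encodes VEGFR1, which binds VEGF with high affinity and can act as a decoy, and spans chr5:147561604-147726011 on the minus strand. It was the only gene of the 10 with a peak at its principal TSS in every library. The TSS region, chr5:147725332-147726094, was nevertheless weak, with ranks of 13.1, 14.9 and 8.91 in young libraries and 12.9, 52.8 and 8.18 in middle-aged libraries. Middle-aged 2 alone stood far above the rest, so the groups overlapped. The difference of 12.3 (exact permutation p = 0.9) became −1.77 without middle-aged 2. Fold enrichment was 4, 4.29 and 4.81 in the young and 4.05, 6.19 and 3.99 in the middle-aged group. For genes called in all 6 libraries, every middle-aged TSS peak ranked above every young one at 30.6% and below at 0.274% of 10569 genes, and neither Cdh5 nor Flt1 was among them.

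An upstream Flt1 region at −16.7 kb, chr5:147742533-147742909, ranked above the TSS region in 5 of the 6 libraries, the exception being middle-aged 2. Its ranks were 43.0, 58.6 and 53.0 in young and 57.9, 35.2 and 44.5 in middle-aged libraries (exact permutation p = 0.6). The intronic region at +18.3 kb, chr5:147707584-147707844, was called in young 2 at 20.5 and in the middle-aged libraries at 10.9, 40.0 and 26.2. The other 4 Flt1 regions lay 136.0 to 161.7 kb into the gene, were each called in 1 or 2 libraries and had mean ranks of 6.84 to 20.5. The promoter of Flt1 is shown with that of Tek because they represent the CpG-rich and the CpG-poor start sites among the 10 genes. Both are the 250 bases before the start in RefSeq (GRCm38.p6), written 5′ to 3′ in the direction of transcription, from chr5:147726012-147726261 on the minus strand and chr4:94739039-94739288 on the plus strand. Capitals mark the word CCCNNGGG, recognized by EBF factors and found in 11.8% of 32851 promoters of this length.
Flt1 promoter: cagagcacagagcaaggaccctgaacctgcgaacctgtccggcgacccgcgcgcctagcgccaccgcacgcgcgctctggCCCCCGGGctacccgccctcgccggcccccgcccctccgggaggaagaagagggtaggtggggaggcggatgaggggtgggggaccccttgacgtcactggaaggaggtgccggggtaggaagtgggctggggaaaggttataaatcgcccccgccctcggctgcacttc
Tek promoter: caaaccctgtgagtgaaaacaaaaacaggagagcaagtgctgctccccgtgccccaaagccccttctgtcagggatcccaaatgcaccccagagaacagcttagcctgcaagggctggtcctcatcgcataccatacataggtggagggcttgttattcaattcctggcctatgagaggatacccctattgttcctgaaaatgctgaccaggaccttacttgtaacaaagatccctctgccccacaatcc
The Flt1 stretch contained 23 CG dinucleotides and the Tek stretch 2, compared with a median of 6 over all promoters in the table.

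The angiopoietin receptor gene Tek, which encodes TIE2 and spans chr4:94739289-94874976 on the plus strand, had a TSS peak only in middle-aged 1, at rank 25.9. Its most widely shared region was intronic at +71.4 kb, chr4:94810582-94810864. This region ranked at 21.0 and 47.8 in young 1 and 2 and at 46.3, 44.2 and 64.5 in the middle-aged libraries, and young 3 had no peak there. Eng encodes endoglin, a co-receptor for ligands of the TGF-β family, and spans chr2:32646595-32682669 on the plus strand. A TSS peak was called in young 2 at rank 1.64 and in middle-aged 3 at rank 3.85, both near the bottom of their lists. An intronic Eng region at +33.6 kb, chr2:32680034-32680384, was called in all libraries but young 3, with ranks of 12.4 and 43.4 in the young and 25.9, 26.3 and 18.5 in the middle-aged group. The other 3 Eng regions were called in middle-aged libraries alone, 2 of them in middle-aged 2 and 3 and 1 in middle-aged 3, but all lay within the neighbouring gene Ak1, an adenylate kinase gene whose starts were closer than that of Eng. The region with the highest mean rank at the locus, chr2:32631761-32631975 with 38.0, was one of these.

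The ETS factor gene Erg, which is required to maintain endothelial identity, spans chr16:95359169-95586593 on the minus strand and has starts spread over most of its length. None of the libraries had a peak at the principal TSS at 95530365. The region counted at a TSS, chr16:95585435-95585960, lay 844 bp inside the most distal start, which belongs to a transcript that is not the principal one. It was called in every library but young 3, at ranks of 3.95 and 13.4 in the young and 3.50, 5.34 and 15.0 in the middle-aged group, near the bottom of each list. A pair of intronic regions was called in all 6 libraries. The one at +98.0 kb from the principal TSS, chr16:95432074-95432520, ranked at 61.4, 63.9 and 43.3 in young and 56.3, 71.7 and 55.9 in middle-aged libraries, with overlapping groups (difference 5.08, exact permutation p = 0.6; −1.39 without young 3). The other, chr16:95573193-95573582 at −43.0 kb from the principal TSS and 13.2 kb inside the most distal one, ranked at 28.9, 68.5 and 1.21 in young and 47.5, 54.9 and 45.8 in middle-aged libraries (difference 16.5, exact permutation p = 0.5). Young 3 was the low value, and without it the young mean was 48.7 against 49.4, a difference of 0.704. Another region at −67.3 kb, chr16:95597489-95598015, which was upstream of all starts, was called in young 2 at 29.1 and in the middle-aged libraries at 9.13, 9.69 and 7.26.

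Sequences of the shared distal regions of Erg and Flt1 are shown since these regions, rather than the start sites, were called with the higher ranks at both loci. All windows are on the plus strand, at chr16:95432234-95432434, chr16:95573269-95573469 and chr5:147742573-147742773, and capitals again mark the AP-1 word.
Erg intron at +98.0 kb: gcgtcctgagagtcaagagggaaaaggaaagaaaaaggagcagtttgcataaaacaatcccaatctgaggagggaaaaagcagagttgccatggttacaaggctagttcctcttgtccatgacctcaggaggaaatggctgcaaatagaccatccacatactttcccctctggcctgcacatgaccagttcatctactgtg
Erg intron at −43.0 kb: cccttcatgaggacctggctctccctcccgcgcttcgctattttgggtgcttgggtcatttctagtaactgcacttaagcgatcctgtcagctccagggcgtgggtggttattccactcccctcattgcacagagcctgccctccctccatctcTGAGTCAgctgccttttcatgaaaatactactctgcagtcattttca
Flt1 upstream at −16.7 kb: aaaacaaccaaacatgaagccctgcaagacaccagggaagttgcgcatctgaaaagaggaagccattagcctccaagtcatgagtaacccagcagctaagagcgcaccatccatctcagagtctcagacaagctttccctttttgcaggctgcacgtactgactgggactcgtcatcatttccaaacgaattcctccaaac
Neither the first nor the last of these windows contained any of the words searched. ETS words (CCGGAAG or CAGGAAG) were found within 150 bp of the summit at 6 of the 33 endothelial regions (18.2%) and at 23.0% of all regions. The SOX word CCATTGT was found at 2 (6.06% versus 3.32%), the GATA word AGATAA at 2 (6.06% versus 10.1%) and the RUNX word TGTGGT at 11 (33.3% versus 27.3%). The TEAD word GGAATG was present at 10 (30.3% versus 17.9%) and the EBF word at 2 (6.06% versus 12.3%). No region contained the RBPJ word GTGGGAA or the KLF word GGGTGTGG, which 7.08% and 3.08% of all regions did. The CTCF word AGGGGGC, added after the values had been seen, was found at 2 (6.06% versus 8.98%). Over the 46608 regions at protein-coding loci alone, the shares were 23.8% for ETS, 16.8% for AP-1, 2.95% for SOX, 9.22% for GATA and 25.3% for RUNX. They were 16.7% for TEAD, 13.2% for EBF, 6.88% for RBPJ, 3.24% for KLF and 10.2% for CTCF.

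**Figure D2:**
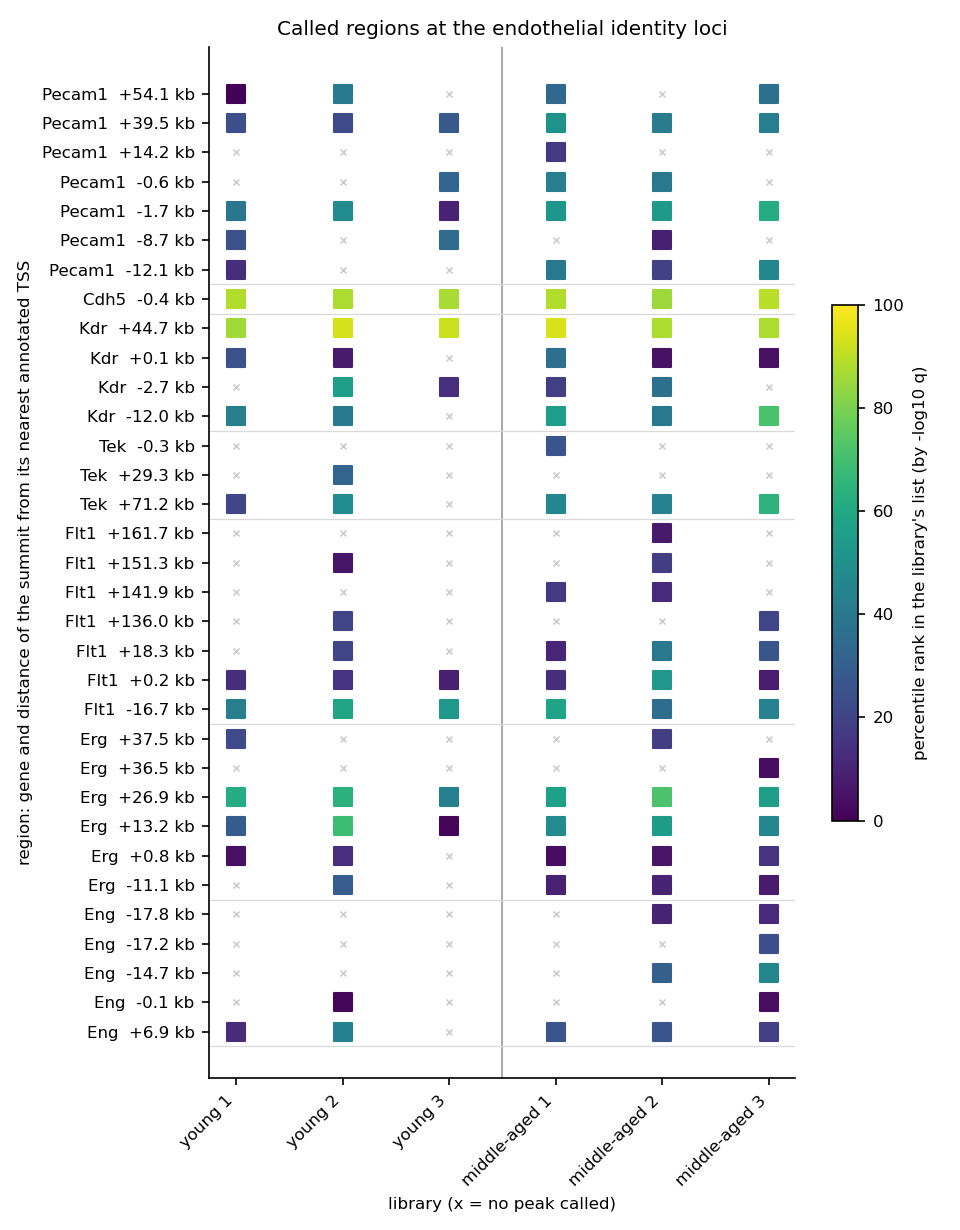
Percentile rank of the 33 regions at the endothelial identity loci in each of the 6 libraries, by gene and distance from the nearest annotated TSS of that gene; crosses mark libraries without a peak. The Cdh5 region and the Kdr region at +44.7 kb rank above 85 in every library, and the column of young 3 has 22 crosses.

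Taking all loci together, 8 of the 33 regions were called in all 6 libraries (24.2%), compared with 38.8% of the regions at all protein-coding loci, and 6 were called in a single library. No region was called in all middle-aged and no young library, which held for 2.00% at all loci, and none in all young and no middle-aged library, which held for 0.0257%. More middle-aged than young libraries called 17 regions (51.5%, beside 44.2% at all protein-coding loci), more young libraries called 2 (6.06%, beside 8.58%), and 14 were called equally often. By position, 16 regions were intronic, 13 upstream, 3 on untranslated and 1 on a coding exon, and 7 fell in a TSS window. The endothelial loci covered 1.06 Mb in total, and the median over the 10 loci was 2.18 regions per 100 kb, compared with a median of 4.02 over all loci. The median of the mean ranks was 25.3 for endothelial regions and 35.6 for regions at all loci.

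**Figure D3:**
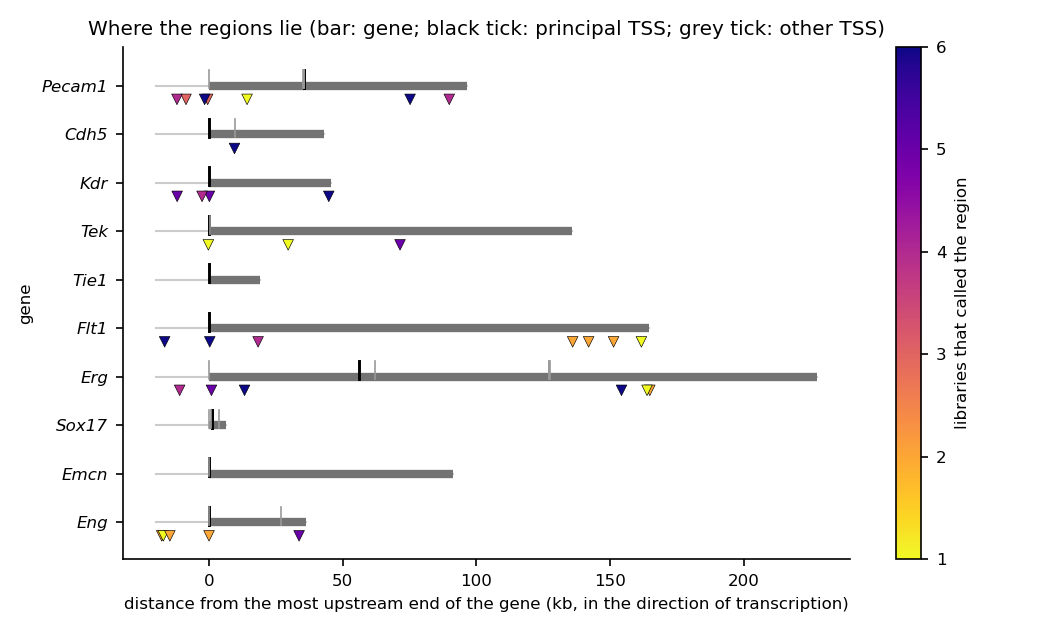
Position of each region (triangles) in kb from the most upstream end of its gene, in the direction of transcription. Colour gives the number of libraries that called the region. Thick bars are genes, thin lines the 20 kb upstream, black ticks principal TSSs and grey ticks other TSSs. The Cdh5 triangle lies at a grey tick inside the gene, and Tie1, Sox17 and Emcn have no triangle.

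Young 1, 2 and 3 had 18, 22 and 11 peaks at the endothelial loci, compared with 23, 26 and 24 for middle-aged 1, 2 and 3. Every middle-aged count was above every young count, as was true of the lengths of the lists, with means of 17 ± 5.57 and 24.3 ± 1.53 (SD, n = 3). The ratio was 1.43, beside 1.28 for peaks at all protein-coding loci and 1.32 for the whole lists, and the difference of 7.33 peaks fell to 4.33 without young 3. After all lists had been shortened to the 27628 strongest peaks, the difference was −1, in the opposite direction. At single loci the groups always overlapped, which is to say that 0 of 10 loci had every middle-aged count above every young one or the reverse. Over all genes, these orders occurred at 5.09% and 0.0732%. Flt1 had 2, 5 and 2 peaks in young and 4, 6 and 4 in middle-aged libraries, Erg had 4, 4 and 2 versus 4, 5 and 5, and Pecam1 had 6, 4 and 4 versus 7, 6 and 5 (exact permutation p = 0.3 for each). The difference at Erg was 1.33 peaks, and 0.667 without young 3. Eng had 1, 2 and 0 versus 1, 3 and 5 peaks (exact permutation p = 0.3), which include the middle-aged peaks within Ak1 described above. With 5 kb instead of 20 kb upstream, the difference at Eng was 0.333 instead of 2 peaks. The difference over all 10 loci was then 4.33 instead of 7.33 peaks.

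Of the 33 regions, young 3 lacked 22, whereas each of the other libraries lacked 8 to 16. These included all 5 regions that every other library called: the TSS regions of Kdr and Erg, Kdr at −12.0 kb, Tek at +71.4 kb and Eng at +33.6 kb. In the libraries that called them, the mean summit height of these 5 regions was 5.24 to 8.79 times the genome-wide background. The lowest summit in the whole young 3 list stood at 4.86 times, and its Erg summit at −43.0 kb, at 6.07 times, ranked at 1.21. Why young 3 lacked these regions was not tested.

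**Figure D4:**
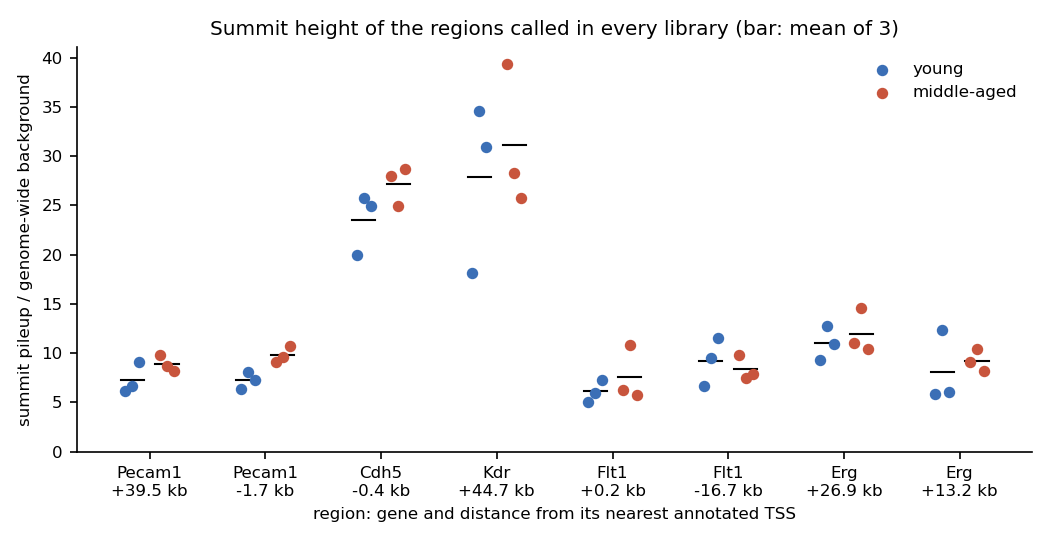
Summit pileup divided by the genome-wide background of the library, a height without unit, for the 8 endothelial regions called in every library; points are libraries, bars the means of 3. Young and middle-aged points overlap at 7 regions, and at the Pecam1 region inside Milr1 (the second from the left) the middle-aged libraries all lie higher.

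At the 8 shared regions, summit height relative to background was 23.6 ± 3.12 in young and 27.2 ± 1.95 in middle-aged libraries for Cdh5 (exact permutation p = 0.2) and 27.9 ± 8.66 and 31.1 ± 7.22 for the Kdr 3′ region (p = 0.7, same exact test). The other 6 shared regions had mean heights of 6.12 to 11.99. The Pecam1 region inside Milr1 had heights of 7.27 ± 0.863 and 9.79 ± 0.864, without overlap, and p = 0.1 (exact permutation) does not pass 0.05. By rank, this order was found at 25.7% of the regions called in all 6 libraries at protein-coding loci. The corresponding shares by height and by fold enrichment were not determined.

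The promoters of the endothelial genes were poor in CpG. Within 1000 bp of the principal TSS, the ratio of observed to expected CpG had a median of 0.298 over the 10 genes, compared with 0.482 over all genes, 0.639 over genes with a TSS peak in all 6 libraries and 0.190 over genes with none. Flt1, with 0.780, and Kdr, with 0.594, had the highest values, and both were called at the principal TSS in at least 5 libraries. Sox17, with 0.550, had no peak despite a similar value. The remaining 7 ranged from 0.116 for Erg to 0.302 for Tie1. For Cdh5, Pecam1 and Erg the ratio describes a principal start without a peak, because their counted peaks were at other starts. Among all genes with a ratio between 0.2 and 0.4, where 6 of the 10 fall, 22.5% had a TSS peak in all libraries and 61.9% in none.

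**Figure D5:**
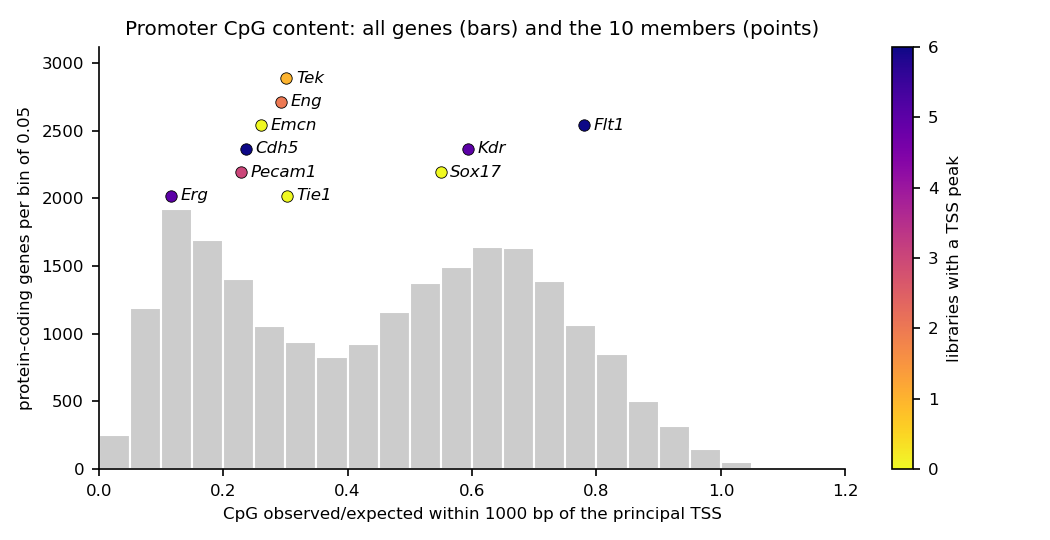
Ratio of observed to expected CpG within 1000 bp of the principal TSS for all protein-coding genes (bars, genes per bin of 0.05) and for the 10 endothelial genes (points, coloured by the number of libraries with a peak at any TSS; their height has no meaning). Flt1, Kdr and Sox17 lie in the CpG-rich part, and the other 7 genes lie at 0.302 or below. The counted peaks of Cdh5, Pecam1 and Erg are at other starts than the principal TSS.

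Other genes of endothelial cells and of the pathways that act on them were examined at their TSSs in the same way. Of 27 further endothelial genes, 7, 9 and 6 were called in young and 9, 9 and 9 in middle-aged libraries, with 6 called in all and 17 in none. The 6 were Tal1, Lyl1, Gata2, Aplnr, Prox1 and S1pr1, and the part that blood cells had in these calls was not tested. As given above, 48.4% of all protein-coding genes were called in all libraries, 38.5% in none and 49.5 to 58.0% per library, which is the background for each list here. Egfl7, which encodes a secreted endothelial matrix protein, was called in young 2 and in all middle-aged libraries. Fli1, an ETS factor gene active in both endothelial and blood cells, was called in no young library and in the middle-aged libraries at low ranks of 7.64, 4.22 and 0.372. Of 9 genes for VEGF and angiopoietin ligands and neuropilin co-receptors, 6, 7 and 3 were called in young and 7, 7 and 8 in middle-aged libraries. Angpt1, which encodes the TIE2 ligand that marrow stromal cells secrete, was called in young 1 at 8.47 and in the middle-aged libraries at 20.4, 50.1 and 11.2. Of 9 mural genes, which mark pericytes and smooth muscle, 1, 2 and 1 were called in young and 3, 2 and 2 in middle-aged libraries, with Myh11, smooth muscle myosin, in middle-aged 1 and 3 only. Pdgfra, a receptor gene of stromal progenitors, was called in young 1 and in all middle-aged libraries. Csf1r, the receptor gene of macrophages, was called in young 2 and 3 only, at ranks of 17.3 and 6.19. The other 9 hematopoietic genes were called in all 6 libraries. Over all genes, 2.78% were called in at least 2 more middle-aged than young libraries and 0.110% in at least 2 more young libraries. Of 5 megakaryocyte genes, every library called 1, Pf4.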

How the data were processed

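ATAC-seq peak lists of 3 young and 3 middle-aged SSPC samples were used, grouped by their titles. In the authors' pipeline, FASTQ files made by bcl2fastq were mapped to mm10 by Bowtie2, Sambamba discarded duplicates, and MACS called peaks for each library; their comparison with DiffBind needs reads and was not repeated. A shift of reads for the transposase's offset, which would move peak edges by a few bases, is not given in the sources used here. The authors deposited for each peak a score (a whole-number form of −log10 q), a fold enrichment (a linear ratio, each term with 1 added), the −log10 of a Poisson p-value and the −log10 of the q-value. From the deposited fold and −log10 p, the summit pileup and local background were solved; 100% of pileups were whole numbers, and the lowest background served as the genome-wide one. Percentile ranks were taken within each list by −log10 q, and since longer lists hold more weak peaks, ranks and counts move with list length.

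TSSs (54361) and gene bodies came from GENCODE for mm10, with principal transcripts by its APPRIS tags (for CpG, all transcripts of a gene without one), and sequences from RefSeq of the same build, GRCm38; RefSeq promoters matched 7 of the 10 genes. Coordinates count from 1. Regions were peaks merged at an overlap of at least 1 bp. Single values were compared with two-sided exact permutation tests over 20 assignments of libraries, whose smallest p is 0.1. The 10 genes, the further gene lists and the tests were chosen with earlier results of these data known, so counts over lists carry no p. All 10 genes were named. Named regions were those called in all 6 libraries and those called in all of an age group and at most 1 library of the other. The highest ranked region of each gene was also named. Further genes were named where the groups differed by at least 2 libraries. Outside this rule, Ptprc, Adgre1, Pf4 and the stromal genes called in all or in no library were named for description. The further endothelial genes called in all libraries were named for the same reason. Other values were likewise given for description. Alternatives were stricter, equally long or thinned lists, other windows and overlaps, a replicate block, and each library left out. Analyses used Python 3.11.15, SciPy 1.17.1 and pandas 2.3.3, and the scripts' statistics were tested on simulated data. No replicate numbers mark shared mice, and same-numbered libraries did not deviate together (r of 0.00276, −0.00309 and −0.0414 over 22403 regions).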

Additional observations from a re-analysis of the deposited data

How the results depend on the processing

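The difference in endothelial genes with a TSS peak (1.33 more in middle-aged libraries) was 0.333 at a −log10 q of at least 5 and −0.333 with equally long lists, and it ranged from 0.833 to 1.83 when single libraries were left out. The difference in peaks at the loci (7.33) was −1 with equally long lists and 4.33 with 5 kb upstream. It ranged from 4.33 to 9.83 when single libraries were left out. With equally long lists the differences at single loci also reversed for Pecam1 (−0.333), Kdr (−1) and Flt1 (−0.333), and that of Tek was −0.167 without young 3. The number of regions called in all middle-aged and no young library (0) was 1 in thinned lists and 1 when a peak had to cover at least 50% of a region, and it ranged from 0 to 2 without single libraries: 1 without young 1, 2 without young 2, 2 without middle-aged 1 and 1 without middle-aged 3. The rank difference of the Cdh5 peak (0.0336) changed sign at a −log10 q of at least 5 (−0.233), with equally long lists (−5.04), without young 3 (−0.338), without middle-aged 1 (−0.398) and without middle-aged 3 (−0.691), with a range from −0.691 to 1.19 over single libraries left out, and none of these passed the exact permutation test. That of Flt1 was −1.77 without middle-aged 2, with a range from −1.77 to 20.6, and it could not be computed in the stricter, equally long and thinned lists, where Flt1 was not called in all libraries. Leaving out single libraries, an alternative chosen after seeing the data, gave principal TSS differences from 0.167 to 1.17. It also reversed the rank difference of the Kdr 3′ region (−0.644) without young 2 (0.968), young 3 (0.0804), middle-aged 2 (0.383) and middle-aged 3 (0.391), with a range from −2.98 to 0.968, and that of Erg at +98.0 kb (5.08) without young 3 (−1.39) and middle-aged 2 (−0.107), with a range from −1.39 to 8.94. Those of the other shared regions kept their sign, from 17.1 to 22.0 at Pecam1 +39.8 kb, 12.3 to 31.5 at Pecam1 inside Milr1, −11.7 to −0.356 at Flt1 −16.7 kb and 0.704 to 34.4 at Erg −43.0 kb. The cause of these changes was not tested. The rank differences of the shared regions outside TSS windows, including those at Pecam1, were examined only by leaving out single libraries. They were not determined in the stricter, equally long or thinned lists. With the replicate block, differences were 1.33 genes and 7.33 peaks, as without it, and it changed no call; its smallest p is 0.25.

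The lists limit these values in that a region without a peak is not shown to be closed, that read totals are unknown, and that regions upstream of a gene can belong to a neighbour. With 3 libraries per group the smallest p of a single region is 0.1.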
